A study of Homo sapiens with 6 samples.

Results

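Small structural noncoding RNAs were examined in poly(A)-selected RNA of KYSE70 cells, a human esophageal squamous carcinoma cell line. The 45 RNAs described here are the gene rows whose name starts with SNORA, SNORD, SCARNA, RNU or RN7S, or is RMRP, and which were selected on a mean level over the 6 libraries of at least 1 RPKM, a read density per gene length and library size. They were drawn from 613 rows with such a name, in a table of 48644 gene rows. By name, 16 were box H/ACA RNAs, 7 box C/D RNAs, 4 Cajal body RNAs, 14 spliceosomal RNAs, 2 RNAs of the 7SK type, 1 was the 7SL RNA and 1 the RNA of RNase MRP. Because the level chose them, their presence above 1 RPKM is a description and not a result.

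The cells carried a stable pLKO-Tet construct for a short hairpin against TP63 or against SOX2, which doxycycline switches on. TP63 and SOX2 encode transcription factors of squamous epithelium. Induced cells had received 50 ng/ml of doxycycline for 4 days (day 4), and uninduced cells none (day 0). Each line had 2 libraries at day 4 and 1 at day 0, so the groups were induced shTP63, uninduced shTP63, induced shSOX2 and uninduced shSOX2. No line without a hairpin and no doxycycline-only control is analysed here. Nothing in the labels says that the libraries of a group came from separate cultures, so p-values measure the spread between these libraries, which may be technical. The numbers 1 and 2 in the titles could also stand for different hairpins.

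These RNAs belong to particles of RNA and protein rather than to messenger RNA. Box C/D RNAs guide 2′-O-methylation and box H/ACA RNAs guide pseudouridylation, mostly of ribosomal RNA in the nucleolus, and Cajal body RNAs guide the same changes in spliceosomal RNA. A few box C/D and H/ACA RNAs, such as U3, U8 and U17, serve in cleavage of the ribosomal RNA precursor instead. Spliceosomal RNAs recognise splice sites, 7SK RNA holds the elongation kinase P-TEFb in an inactive particle, 7SL RNA is the scaffold of the signal recognition particle, and RMRP is the RNA of RNase MRP. Many human snoRNAs are cut out of introns of a host gene, whereas U3, the snRNAs, 7SK, 7SL and RMRP have promoters of their own. Mature forms of these RNAs generally end without a long poly(A) tail, so their reads in oligo(dT)-selected RNA cover only what passed that selection.

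The following sequences were shown because the comparisons below turn on them or because they mark the length limit. They were matched by name to the transcripts of GENCODE release 29, which held 38 of the 45 RNAs and 498 of the 613 rows. For the box C/D RNAs the capitals mark the first TGATGA (the core of box C) and the last CTGA (box D), and SNORD48 is the one short member.
SNORD3A: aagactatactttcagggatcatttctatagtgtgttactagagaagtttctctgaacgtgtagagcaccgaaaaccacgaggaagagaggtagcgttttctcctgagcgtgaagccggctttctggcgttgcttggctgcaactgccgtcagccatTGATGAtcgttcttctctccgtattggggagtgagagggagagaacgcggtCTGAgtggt
SNORD17: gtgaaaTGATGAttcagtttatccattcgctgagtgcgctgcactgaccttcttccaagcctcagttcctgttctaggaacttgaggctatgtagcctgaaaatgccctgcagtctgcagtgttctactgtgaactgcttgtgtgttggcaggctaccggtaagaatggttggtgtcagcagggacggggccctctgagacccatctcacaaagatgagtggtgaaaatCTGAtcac
SNORD48: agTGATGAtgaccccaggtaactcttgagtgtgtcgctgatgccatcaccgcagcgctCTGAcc

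Motifs were searched on the RNA strand alone, and TGATGA and CTGA may share letters. Of the 7 box C/D members, 6 held TGATGA, against 182 of 233 box C/D rows with a sequence and 39.2% of all 498 sequences. CTGA was in all 7, in 229 of the 233 rows and in 69.3% of all sequences. For the next RNAs the capitals mark the ACA that lies within the last 6 bases, the ACA box by which this class is named. SCARNA13 is the Cajal body RNA that differed most between the lines, and SNORA65 and SNORA59B are the box H/ACA RNAs called between the lines.
SCARNA13: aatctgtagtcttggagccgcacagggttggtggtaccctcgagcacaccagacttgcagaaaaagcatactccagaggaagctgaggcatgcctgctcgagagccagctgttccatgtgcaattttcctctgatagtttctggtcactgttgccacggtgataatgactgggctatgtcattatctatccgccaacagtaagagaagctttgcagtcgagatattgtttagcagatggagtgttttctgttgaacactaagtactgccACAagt
SNORA65: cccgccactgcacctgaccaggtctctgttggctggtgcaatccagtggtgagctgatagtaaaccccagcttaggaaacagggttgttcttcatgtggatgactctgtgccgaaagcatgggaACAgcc
SNORA59B: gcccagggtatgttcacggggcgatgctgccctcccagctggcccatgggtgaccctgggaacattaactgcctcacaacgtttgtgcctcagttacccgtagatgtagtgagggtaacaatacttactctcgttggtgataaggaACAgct

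An ACA in the last 6 bases was present in 14 of the 15 box H/ACA members with a sequence, in 85 of 94 box H/ACA rows and in 22.7% of all sequences. Among the Cajal body members 2 of 4 held it. SNORA59A, which lies on another chromosome, has the same 152 bases as SNORA59B. In U1 RNA the capitals mark ACTTACCT, the letters that pair with the 5′ splice site, and in 7SK RNA, of which the first 100 of 328 bases are shown, they mark GATC, letters known from the binding of HEXIM1. The RNU4 pair is printed with the bases that differ between the copies in capitals.
RNU1-1: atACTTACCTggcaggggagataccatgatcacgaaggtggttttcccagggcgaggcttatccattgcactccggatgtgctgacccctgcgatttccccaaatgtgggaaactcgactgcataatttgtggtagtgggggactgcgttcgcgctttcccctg
RN7SK: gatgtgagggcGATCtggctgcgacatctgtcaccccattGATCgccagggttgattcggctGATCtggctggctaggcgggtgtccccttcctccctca
RNU4-2: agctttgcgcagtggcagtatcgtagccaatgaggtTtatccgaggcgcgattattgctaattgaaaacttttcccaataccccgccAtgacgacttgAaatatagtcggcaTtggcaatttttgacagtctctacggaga
RNU4-1: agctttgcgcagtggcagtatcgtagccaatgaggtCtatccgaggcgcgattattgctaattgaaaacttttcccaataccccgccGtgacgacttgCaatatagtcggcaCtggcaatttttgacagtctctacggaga

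Positions are counted from 1 at the 5′ end of the annotated RNA. The RNU4 copies differ by T37C, A88G, A99C and T113C, with the base of RNU4-2 first. SNORD3C differs from SNORD3A by G108A alone over 217 bases. RNU1-1, RNU1-2, RNU1-3 and RNU1-4 have the same 164 bases, so a read from one of them cannot be told apart from a read of another. The letters ACTTACCT were in 4 of the 8 spliceosomal members with a sequence and in 1.61% of all sequences, and GATC was in 31.9% of all sequences. RNU1-5 to RNU1-9, RNU2-2 and SNORA80 were not matched to a sequence by name.

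Short rows were rarely above the threshold, and most long rows were not above it either. Of the rows with an annotated length under 100 nt, 1 of 280 reached a mean of 1 RPKM, and of those of 100 to 129 nt, 0 of 69. The share was 17 of 91 rows (18.7%) at 130 to 149 nt and 20 of 58 (34.5%) at 150 nt or more. Within the box C/D class, 1 of 214 rows under 100 nt, 0 of 11 rows of 100 to 129 nt, 3 of 5 rows of 130 to 149 nt and all 3 longer rows reached the threshold. The one short RNA was SNORD48, of 64 nt, which lies over an annotated exon of its host gene C6orf48. Here and below, an overlap with an exon of any annotated transcript of the gene was counted, so the RNA may be intronic in other transcripts. Within the box H/ACA class the counts were 0 of 18, 11 of 66 and 4 of 10 from the 100 nt class upward. The median length was 151.5 nt among the 38 members with a length and 85.5 nt among the 460 other rows. These counts describe which rows the level threshold kept and carry no test. Length and class go together, because most box C/D RNAs are short, and RPKM is itself divided by the length of the row.

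**Figure D1:**
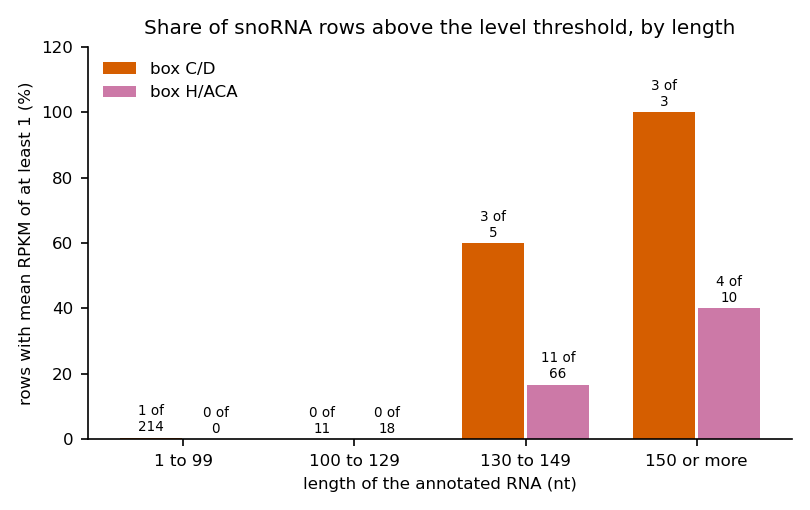
Percent of box C/D (orange) and box H/ACA (pink) rows with a mean of at least 1 RPKM, by annotated length in nt, with the count of rows above each bar. Bars are at or near 0 below 130 nt, and reach 60% and 100% for box C/D and 16.7% and 40% for box H/ACA above it.

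Only 118 of the 613 rows were above 0 in any library, and 40 in all 6. None of the 74 U7 rows was above 0. The RNAs just inside the threshold were SNORA6 at 1.06 RPKM, RNU4-5P at 1.08 and SNORA65 at 1.11, and those just outside were SNORA23 at 0.986, SNORA21 at 0.936 and SNORA74B at 0.910. The share of rows kept was 2.64% for box C/D, 14.2% for box H/ACA, 11.2% for spliceosomal and 20.0% for Cajal body RNAs.

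The libraries differed in ways that touch these RNAs. Read depth is unknown, because the deposited values are log2(RPKM + 1) and share one distribution across libraries. All 6 libraries have the same highest value, 13.36, so the level of an RNA near the top of the table is in effect its rank. The uninduced shTP63 library had 16167 rows above 0, against 21530 to 23509 in the others, and its smallest value above 0 was 0.143, against at most 0.0147 elsewhere. There, 7 of the 45 RNAs were listed at 0 (SNORD94, SNORA84, SNORA59B, SNORA59A, SNORA52, SNORA5C and SNORA65), as were 0.532% of the 10536 genes tested, and none of the 45 was at 0 in another library. TP63 stood at 2.11 and 2.27 log2 units in induced shTP63 cells and at 3.99 in uninduced cells of that line, and SOX2 at 4.67 and 5.65 in induced shSOX2 cells and at 6.25 in uninduced cells. Of the 10 squamous markers 9 reached a mean of 1 RPKM, with KRT5 between 8.39 and 11.01 log2 units in the 6 libraries, while KRT17 averaged 0.794 RPKM and KRT14 2.31 RPKM. None of 5 leukocyte and 3 endothelial markers reached 1 RPKM, and of 5 fibroblast markers COL1A1 alone did, at 3.21 RPKM.

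By mean level over the 6 libraries, RN7SK, RN7SL1 and RMRP were the highest of the 45, although SNORD3A lay above RMRP in induced replicate 1 and uninduced cells of the shSOX2 line. Together the 45 RNAs held 9.32% and 12.9% of the summed linear RPKM in induced shTP63 libraries and 13.8% in the uninduced one, against 5.69% and 5.77% in induced shSOX2 libraries and 3.48% in the uninduced one. RN7SK, RN7SL1 and RMRP made up most of these sums, and other classes did not follow them. Box C/D RNAs held 0.162%, 0.155% and 0.131% in the shTP63 libraries, against 0.942%, 0.688% and 0.602% in the shSOX2 libraries. Cajal body RNAs were also lower in every shTP63 library. Spliceosomal and box H/ACA RNAs overlapped between the lines. RN7SK alone stood at 10548.3 RPKM in all 3 shTP63 libraries, where it was the top row of the table. In shSOX2 libraries it stood at 3292.9 and 3850.0 RPKM at day 4 and at 2290.4 RPKM at day 0, at ranks 4, 3 and 6. All 3 shTP63 libraries lay above all 3 shSOX2 libraries. RN7SL1 was at rank 6, 2 and 2 in induced replicate 1, induced replicate 2 and uninduced cells of the shTP63 line, against ranks 5, 7 and 9 in the same order in the shSOX2 line, so its groups overlapped. RMRP stood at 10.69 log2 units in both induced shTP63 libraries and at 11.69 in the uninduced one, against 10.09, 10.31 and 9.21 in the shSOX2 libraries, all lower. The value 11.69 is also that of RN7SK in an induced shSOX2 library, since rows of equal rank share a value.

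Among box C/D RNAs, U3 (SNORD3A) was far above the rest. It stood at 7.83 and 7.84 log2 units in induced and 7.46 in uninduced shTP63 cells, against 10.52 and 10.03 in induced and 9.88 in uninduced shSOX2 cells. On the linear scale its mean over the 6 libraries was 679 RPKM, against 23.7 RPKM for SNORD17, 18.9 RPKM for SNORD3C and 13.0 RPKM for SNORD10. SNORD118, the U8 RNA of large-subunit ribosomal RNA processing, averaged 3.75 RPKM, SNORD94 2.20 RPKM and SNORD48 1.97 RPKM.

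All 4 Cajal body members were long RNAs of 270 to 420 nt. SCARNA2, a guide for U2 RNA, had the highest mean level of the class, 83.8 RPKM. SCARNA7 averaged 49.5 RPKM, SCARNA12 30.9 RPKM and SCARNA13 16.0 RPKM. In the box H/ACA class SNORA73B, a copy of the U17 RNA, averaged 76.2 RPKM, and SNORA71C followed at 10.3 RPKM, SNORA10 at 8.93, SNORA7B at 5.52 and SNORA47 at 4.57. The remaining 11 averaged from 1.06 to 4.00 RPKM. Of the spliceosomal RNAs, RNU4-2 averaged 109 RPKM and RNU4-1 74.9 RPKM. No U5 or U6 row reached 1 RPKM.

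**Figure D2:**
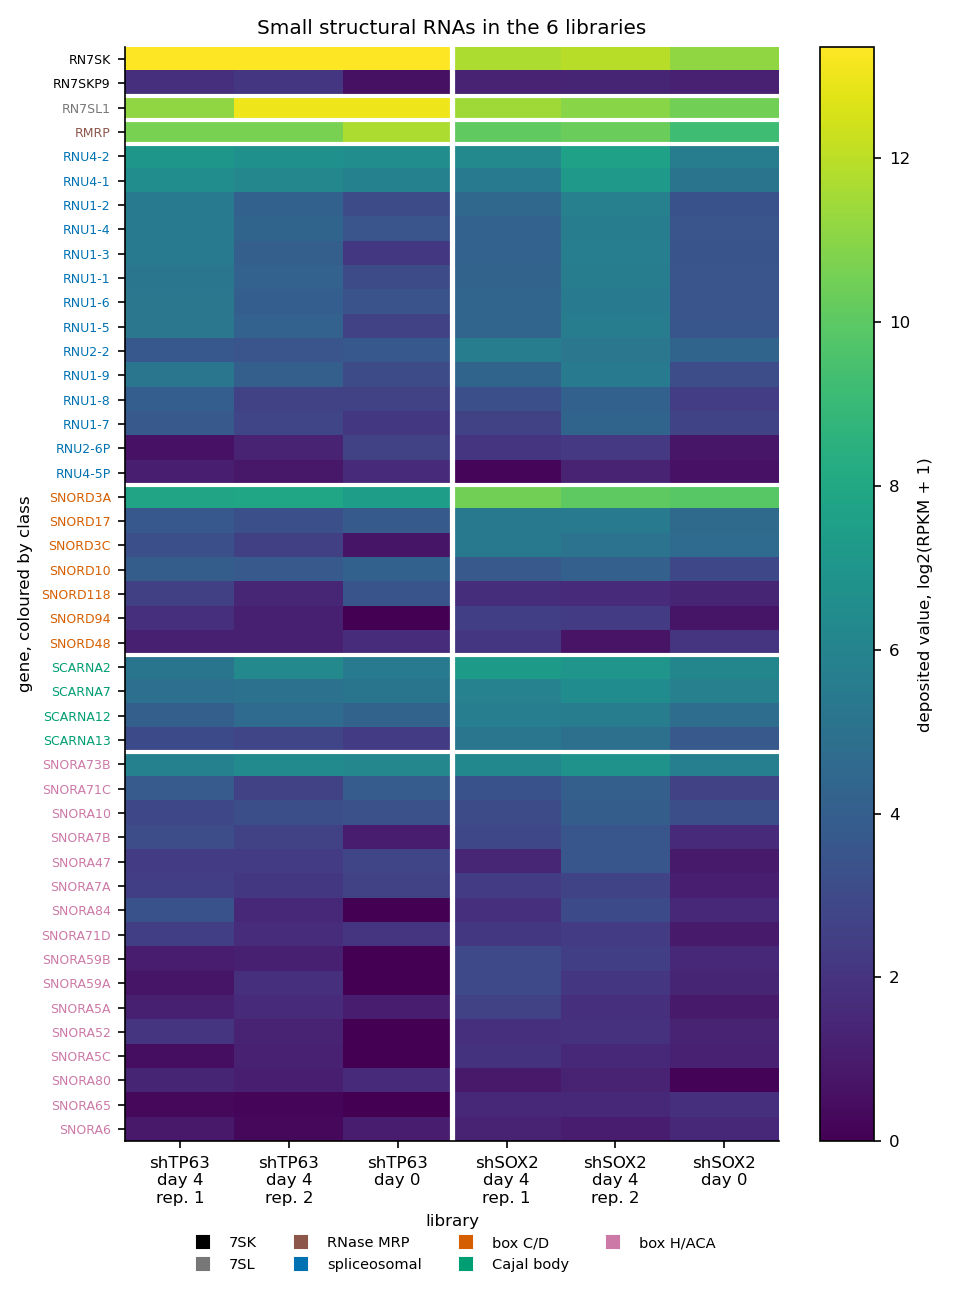
Deposited level, as log2(RPKM + 1), of each of the 45 RNAs (rows, coloured by class) in the 6 libraries (columns), with the 3 shTP63 libraries left of the 3 shSOX2 libraries. RN7SK is at 13.36 in all shTP63 libraries, and 7 RNAs are at 0 in uninduced shTP63 cells.

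Calls among these RNAs were made between the lines, and none between the days of a line. In induced cells, limma called 7 of the 45 RNAs between the shTP63 and shSOX2 lines, against 0.759% of all genes tested (0.247% higher and 0.513% lower), at a Benjamini-Hochberg adjusted p under 0.05. RN7SK was higher in the shTP63 line. U3 (SNORD3A and SNORD3C), SNORD17, SCARNA13, RNU2-2 and SNORA59B were lower there. SNORD3A and SNORD3C share all but a single base, so some of their reads cannot be assigned to either. Without regard to adjustment, 18 of the 45 and 23.0% of all genes had a p under 0.05.

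RN7SK differed by 1.57 ± 0.17 log2 units (SE, n = 2 libraries each, limma adjusted p = 0.025). Being at the highest value of the table in every shTP63 library, it could not have read higher there. For the same reason its induced shTP63 pair was equal and added no spread, so the SE and p-value may be too small. SNORD3A was lower by 2.44 units in induced shTP63 cells (log2 difference -2.44 ± 0.26, limma adjusted p = 0.025). SNORD3C stood at 3.28 and 2.52 log2 units in induced and 0.78 in uninduced shTP63 cells, against 5.41 and 5.10 in induced and 4.66 in uninduced shSOX2 cells. Its difference in induced cells was -2.35 ± 0.34 (limma adjusted p = 0.045). Every shTP63 library lay below every shSOX2 library for both U3 rows.

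SNORD17, a methylation guide within an intron of SNX5, stood at 3.66 and 3.26 log2 units in induced and 3.80 in uninduced shTP63 cells, against 5.38 and 5.53 in induced and 4.61 in uninduced shSOX2 cells. The difference in induced cells was -1.99 ± 0.29 (limma adjusted p = 0.045). SCARNA13, a guide for U2 and U5 RNA in an intron of SNHG10, stood at 3.03 and 2.82 units in induced and 2.33 in uninduced shTP63 cells, against 5.23, 4.94 and 3.74 in the shSOX2 libraries of the same order. Its difference in induced cells was -2.16 ± 0.28 log2 units (limma adjusted p = 0.033). Neither RNA overlapped between the lines.

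RNU2-2, a U2 RNA, stood at 3.66 and 3.54 log2 units in induced and 3.69 in uninduced shTP63 cells, against 5.59 and 5.29 in induced and 4.28 in uninduced shSOX2 cells. Its difference in induced cells was -1.84 ± 0.28 (limma adjusted p = 0.047). SNORA59B, in an intron of SLC47A1, was at 1.05 and 1.16 units in induced shTP63 cells and listed at 0 in uninduced ones, against 2.96, 2.48 and 1.55 in the shSOX2 libraries (difference in induced cells -1.61 ± 0.26, limma adjusted p = 0.048). Reads within its 152 bases cannot be told apart from those of SNORA59A, which did not pass (-1.23, limma adjusted p = 0.15). The rows of these copies had equal values in only 2 libraries, and how reads were assigned to them was not tested.

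Averaged over both days, a contrast added after the data were seen, 7 RNAs were again called, against 0.389% of all genes tested (0.0759% higher and 0.313% lower). Both RN7SK (1.89 ± 0.15 log2 units, limma adjusted p = 0.011) and RMRP (1.48 ± 0.18, limma adjusted p = 0.028) were higher in the shTP63 line. The induced shTP63 pair had equal values for each, at rank 1 for RN7SK and rank 8 for RMRP. It therefore added no spread, and these SEs may be too small. SNORD3A (-2.43), SNORD3C (-3.12), SCARNA13 (-1.79), SNORA59B (-1.58) and SNORA65 (-1.57) were lower, with limma adjusted p between 0.012 and 0.043. SNORA65, a pseudouridylation guide in an intron of RPL12, stood at 0.28, 0.18 and 0 log2 units in shTP63 libraries, against 1.51, 1.50 and 1.86 in shSOX2 libraries, while RPL12 itself lay between 6.58 and 7.38 units in all 6. SNORA59B and SNORA65 were listed at 0 in uninduced shTP63 cells, so these fitted differences include a 0. SNORA65 had 0.210, 0.133 and 0 RPKM in shTP63 libraries, against 1.85, 1.82 and 2.62 RPKM in shSOX2 libraries, so it passed the filter on low values through the shSOX2 line alone, and its call is no independent support. By rank alone, 10 of the 45 RNAs (22.2%) lay lower in every shTP63 library than in every shSOX2 library, against 11.3% of all genes tested, and 2 (4.44%) lay higher, against 12.2%. The 10 were RNU2-2, SNORD3A, SNORD17, SNORD3C, SCARNA7, SCARNA12, SCARNA13, SNORA59B, SNORA65 and SNORA6. SNORA59B had 1.08, 1.24 and 0 RPKM in shTP63 libraries, against 6.76, 4.56 and 1.92 RPKM in shSOX2 libraries. SNORA6 had 0.90, 0.23 and 1.00 RPKM, against 1.41, 1.03 and 1.82 RPKM. Like SNORA65, these RNAs reached the threshold through the shSOX2 line, so their places among the 10 are no independent support. The same holds for the calls of SNORA59B. Between uninduced cells alone, with 1 library each, limma called 0 of the 45 and 0 of all genes, while 17 of the 45 and 4.75% of all genes had an unadjusted p under 0.05. Here a p-value sets a single library against another, with the spread of the induced pairs. Leaving out an induced shTP63 library took that spread from the induced shSOX2 pair alone, and the count of 0 did not hold. The share of all genes called is not given for that fit.

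**Figure D3:**
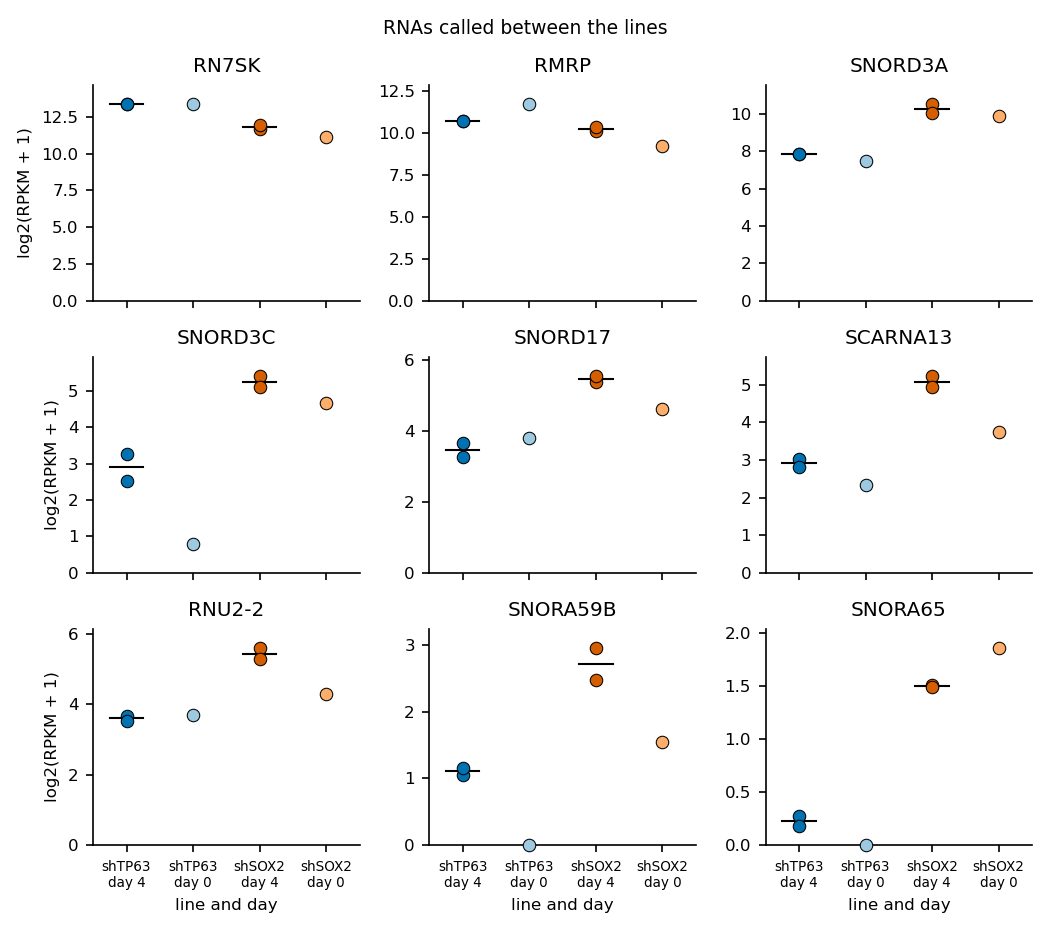
Levels as log2(RPKM + 1) of the 9 RNAs called between the lines, in induced cells or over both days. Points are libraries, the bar is the mean of the 2 induced libraries, and shTP63 (blue) stands left of shSOX2 (orange). RN7SK and RMRP are higher in every shTP63 library and the other 7 are lower.

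Testing all rows without the filter on low values ended all 7 calls in either contrast, and taking the day 0 libraries of both lines as one group ended those in induced cells. Leaving out either induced shSOX2 library ended all 7 calls in induced cells, and 2 calls were left over both days without shSOX2 replicate 1 or without replicate 2, while every one of the called differences kept its sign under all the alternatives tried. Leaving out induced shTP63 replicate 2 also changed the number of calls, in induced cells and over both days. Mitochondrially encoded mRNAs, which carry short poly(A) tails, were lower in the shTP63 line, as were most called RNAs but not RN7SK and RMRP. Their summed linear level was 3588.2 and 2119.2 RPKM in induced and 2259.8 in uninduced shTP63 cells, against 12282.0, 12319.6 and 15678.1 in the shSOX2 libraries, and 7 of the 8 tested were called lower in induced shTP63 cells, with a median of -2.32. Their part in the result was not tested. In bulk RNA, fewer cells that hold an RNA and less of it per cell cannot be told apart.

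Within the shSOX2 line, most small RNAs were higher in both induced libraries than in the uninduced one, but none passed the test. Of the 45, 39 (86.7%) were higher in both, against 33.3% of all genes tested, and 2 were lower in both, against 40.2%. Counting the 9 RNU1 rows once left 32 of 37. The median log2 difference was 1.04 over the 45 and -0.05 over all genes tested, with 0.76 for induced replicate 1 and 1.12 for replicate 2. By class the medians were 1.36 for spliceosomal, 1.06 for box H/ACA, 0.96 for Cajal body and 0.60 for box C/D RNAs. Of the 14 spliceosomal rows 9 were RNU1 rows. The others had 1.35 (RNU4-2), 1.25 (RNU4-1), 1.16 (RNU2-2), 1.33 (RNU2-6P) and 0.11 (RNU4-5P). All 45 differences share the single uninduced shSOX2 library, and members are not replicates of the condition. Set against the day 0 libraries of both lines, the median was 1.13. limma called 0 of the 45 and 0 of all 10536 genes, and 18 of the 45 (40.0%) had an unadjusted p under 0.05, against 10.4% of all genes. The smallest adjusted p was 0.32.

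A difference of at least 2-fold from day 0, in the same direction in both induced shSOX2 libraries, was seen in 9 RNAs, all higher, against 2.48% of all genes. They were RNU1-2, RNU1-9, RNU2-2, RNU2-6P, SNORD94, SCARNA13, SNORA7B, SNORA7A and SNORA71D. Induced replicate 2 alone would give 25 higher and 1 lower, and replicate 1 alone 13 higher, and with 5 RPKM added in place of 1 none was left. SNORD94, a box C/D guide for U6 RNA in an intron of PTCD3, stood at 2.49 and 2.31 log2 units in induced cells, against 0.78 in uninduced cells (difference 1.62 ± 0.36). SCARNA13 stood at 5.23 and 4.94 against 3.74 (1.34 ± 0.34), and SNORA7A, a guide over an exon of RPL32, at 2.33 and 2.75 against 1.12 (1.42 ± 0.34). RMRP was at 10.09 and 10.31 units in induced cells, against 9.21 in uninduced cells.

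Among other RNAs of the shSOX2 line, RNU4-2 and SNORA47 lay far apart between the induced libraries. RNU4-2 stood at 6.27 and 7.66 log2 units in induced cells, against 5.62 in uninduced cells, so the induced pair lay farther apart than the lower of them lay from day 0. SNORA47 was at 1.45 and 3.56 units against 0.96. SCARNA2 was at 7.30 and 6.94 against 6.12, and SCARNA12, over an exon of PHB2, at 5.69 and 5.68 against 4.78. SNORD10, over an exon of EIF4A1, was at 3.75 and 4.10 against 2.88. The 2 RNAs lower in both induced libraries were SNORA65 and SNORA6. SNORA6, in RPSA, stood at 1.27 and 1.02 units in induced cells, against 1.50 in uninduced cells.

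Within the shTP63 line the RNAs lay on both sides of their day 0 level. Of the 45, 24 (53.3%) were higher in both induced libraries, against 37.9% of all genes tested, and 15 (33.3%) were lower in both, against 38.5%. With the RNU1 rows counted once, 16 of 37 were higher. The 7 RNAs listed at 0 in the uninduced library are among the 24, since any value above 0 counted as higher. Only 0.532% of all genes tested were at 0 there, so the shares are not alike in this, and the medians include these 0 values. The median log2 difference was 0.31 over the 45 and 0.00 over all genes tested. By class it was 1.16 for spliceosomal, 0.12 for box H/ACA, 0.22 for Cajal body and -0.32 for box C/D RNAs. The spliceosomal median rests on the RNU1 rows, which are 9 of the 14 and not separate measurements throughout. The other spliceosomal rows had 0.31 (RNU4-2), 0.50 (RNU4-1), -0.09 (RNU2-2), -1.63 (RNU2-6P) and -0.63 (RNU4-5P). limma called 0 of the 45, against 0.019% of all genes (0.00949% in each direction), and 16 of the 45 (35.6%) had an unadjusted p under 0.05, against 14.6% of all genes. The count of 0 of the 45 did not hold with induced shTP63 replicate 2 left out. That fit leaves 1 library in a group, and the share of all genes called is not given for it.

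At least 2-fold differences in both induced shTP63 libraries were seen upward in 11 RNAs, against 3.05% of all genes, and downward in 2, against 2.82%. With 5 RPKM added in place of 1 there were 2, and with the day 0 libraries of both lines as control 4, all of them higher. Of the 11, 4 were RNU1 rows, and 4 (SNORD94, SNORA84, SNORA59B and SNORA52) were listed at 0 in the uninduced library, so no fold is given for them. SNORA84, in an intron of IARS, stood at 3.37 and 1.47 log2 units in induced cells, and SNORA52, over an exon of RPLP2, at 2.05 and 1.33. SNORD3C was at 3.28 and 2.52 units in induced cells, against 0.78 in uninduced cells (2.12 ± 0.41, limma adjusted p = 0.13). SNORD3A, which differs from it by a single base, was at 7.83 and 7.84 against 7.46. SNORA7B, in an intron of RPL32P3, was at 3.14 and 2.58 against 1.06. RN7SKP9, a 7SK pseudogene in an intron of UBAC2, was at 1.82 and 2.09 against 0.62.

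The 2 RNAs at least 2-fold lower were RMRP and RNU2-6P. RMRP stood at 10.69 log2 units in both induced shTP63 libraries, against 11.69 in the uninduced one (a log2 difference of -1 with an SE of 0.25). RNU2-6P, a U2 pseudogene, stood at 0.65 and 1.31 units against 2.60 (-1.63 ± 0.35, limma adjusted p = 0.14). SNORD118, which overlaps an exon of TMEM107, was at 2.52 and 1.46 units in induced cells, against 3.46 in uninduced cells. SCARNA7, in an intron of KPNA4, was at 4.89 and 4.97 against 5.18, and SNORA71C at 3.83 and 2.59 against 3.88. Most of the 45 RNAs did not follow RMRP and RNU2-6P. The uninduced shTP63 library was the lowest of the 6 for 20 of them (44.4%, against 16.8% of all genes tested), including those listed at 0. Replication-dependent histone mRNAs, which also end without a poly(A) tail, had their highest summed level in that library. Their summed level was 552.3 and 453.0 RPKM in induced and 1690.7 in uninduced shTP63 cells. In the shSOX2 line, where most small RNAs were higher after induction, it was 396.7 and 500.1 RPKM in induced and 587.3 in uninduced cells. The median difference over the 52 tested was -1.94 in the shTP63 line and -0.49 in the shSOX2 line, with none called. Their part in these values was not tested.

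Across the lines, 11 RNAs (24.4%) were lower in both induced shTP63 libraries and higher in both induced shSOX2 libraries than in the uninduced library of the same line, against 6.16% of all genes. The difference between the responses, tested as an interaction in limma, was called for 0 of the 45 and 0 of all genes. The count for the 45 did not hold with induced shTP63 replicate 2 left out, a fit with 1 library in that group. An unadjusted p under 0.05 was found for 10 of the 45 (22.2%), against 4.55% of all genes. RNU2-6P (-2.95 ± 0.50, limma adjusted p = 0.96) and RMRP (-1.99 ± 0.36, limma adjusted p = 0.99) had the smallest unadjusted values. RMRP in uninduced cells was at 11.69 log2 units in the shTP63 line and at 9.21 in the shSOX2 line.

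**Figure D4:**
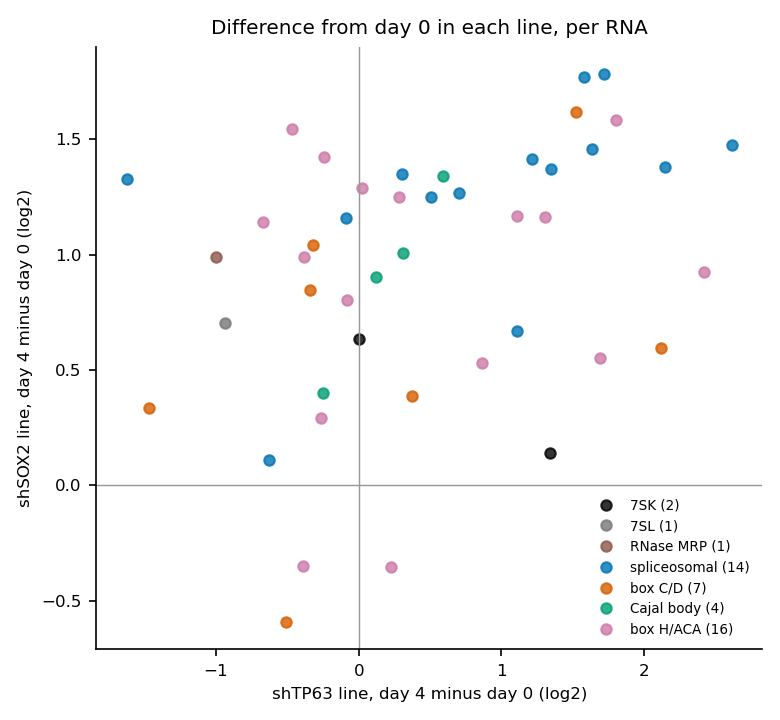
Log2 difference of day 4 from day 0 for each RNA in the shTP63 line (horizontal axis) and in the shSOX2 line (vertical axis), coloured by class with the number of RNAs. Of the 45 points, 42 lie above 0 on the vertical axis and 27 to the right of 0 on the horizontal axis; none was called in either line.

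U1 RNAs had higher values after doxycycline in both lines, without passing the test. RNU1-2 stood at 5.46 and 4.13 log2 units in induced and 3.08 in uninduced shTP63 cells, and at 4.47 and 5.81 in induced and 3.36 in uninduced shSOX2 cells. RNU1-3 had the widest range of the family, with 5.48 and 4.03 in induced and 2.15 in uninduced shTP63 cells, and 4.18 and 5.73 in induced and 3.48 in uninduced shSOX2 cells. For 8 of the 9 RNU1 rows (all but RNU1-7) the 4 induced libraries lay above both uninduced ones. RNU1-1, RNU1-4, RNU1-5, RNU1-6 and RNU1-9 had nearly the level of RNU1-2 in induced cells, and RNU1-7 and RNU1-8 were lower. Over the 9 rows the levels ran from 3.72 to 5.48 in induced shTP63 replicate 1, 2.62 to 4.28 in replicate 2 and 2.15 to 3.54 in uninduced shTP63 cells. In shSOX2 cells they ran from 2.56 to 4.47, from 4.17 to 5.81 and from 2.44 to 3.59 in the same order. The higher induced library was replicate 1 in the shTP63 line and replicate 2 in the shSOX2 line.

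Because RNU1-1 to RNU1-4 have one sequence, they are not separate measurements. Their values still differed, by up to 1.39 log2 units in a library for RNU1-3 and RNU1-4. How reads were assigned to them was not tested. The sequences of RNU1-5 to RNU1-9 were not compared. In the uninduced shTP63 library several rows had the same value, 3.08 for RNU1-1, RNU1-2 and RNU1-9, 2.60 for RNU1-5 and RNU1-8, and 2.15 for RNU1-3 and RNU1-7. Over all classes, 13 RNAs lay higher in all 4 induced libraries than in both uninduced ones (28.9%, against 11.5% of all genes), and 0 lay lower in all 4, against 14.2%. With the RNU1 rows counted once, 6 of 37 (16.2%) lay higher in all 4. Besides the RNU1 rows the 13 were RN7SKP9, SNORD94, SNORA7B, SNORA5A and SNORA52, of which SNORD94 and SNORA52 were listed at 0 in uninduced shTP63 cells. In uninduced shSOX2 and shTP63 cells SNORD94 had 0.71 and 0 RPKM, RN7SKP9 1.30 and 0.53, and SNORA52 1.45 and 0. These RNAs reached the threshold through the induced libraries, so their places among the 13 are no independent support. In the contrast of day 4 with day 0 over both lines, added after the data were seen, limma called 0 of the 45, against 0.0569% of all genes, while 20 of the 45 and 20.6% of all genes had an unadjusted p under 0.05. With an induced shTP63 library left out this count did not stay at 0. Such a fit leaves 1 library in a group, and the share of all genes called is not given for it. All induced libraries had received doxycycline, so 4 days of the drug and loss of the target cannot be told apart.

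The RNU4 copies had similar levels. RNU4-2 stood at 7.06 and 6.69 log2 units in induced and 6.57 in uninduced shTP63 cells, and RNU4-1 at 6.56, 6.17 and 5.86 in the same order. RNU4-1 was below RNU4-2 in all 6 libraries, by at most 0.71 units. The U4 pseudogene RNU4-5P had 1.14 and 0.87 units in induced and 1.64 in uninduced shTP63 cells, against 0.21 and 1.36 in induced and 0.67 in uninduced shSOX2 cells, with overlap. SNORA7B and SNORA7A share 137 of 139 bases but lay up to 1.51 units apart in a library, and SNORD3A and SNORD3C, with 216 of 217 shared bases, up to 6.68 units.

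Most small RNAs varied more than the gene that spans them. In the annotation, 23 of the RNAs lay within a tested gene on the same strand, in 21 distinct genes. For 20 of the 23 the range over the 6 libraries was wider for the small RNA than for that gene, with medians of 1.93 and 0.89 log2 units. The median range over all 45 RNAs was 2.10 units, against 0.98 over all genes tested. The mean RPKM of the small RNA exceeded that of the spanning gene in 9 of 23. SNORA84 ranged over 3.37 units and IARS over 0.77, and SNORD94 over 2.49 and PTCD3 over 0.68. Both small RNAs were listed at 0 in uninduced shTP63 cells, so their range is their highest value. All 7 RNAs listed at 0 there are among the 23 pairs. The 3 with a narrower range were SNORA7A in RPL32, SNORA6 in RPSA and SNORA73B in RCC1. Where several such genes span an RNA, the one with the highest mean level was taken. SNORA73B was thus paired with RCC1 (range 1.49) rather than with SNHG3 (range 2.33). Since no strand-specific step is stated, reads of an intron or exon around a small RNA could count toward it.

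The direction of small RNA and spanning gene matched in 14 of 23 pairs in the shTP63 line, 10 of 23 in the shSOX2 line, and 14 of 23 between the induced lines. SNHG10, which holds SCARNA13, was at 0.74 and 1.00 log2 units in induced and 1.73 in uninduced shTP63 cells, against 2.53 and 2.16 in induced and 2.17 in uninduced shSOX2 cells, lower in every shTP63 library. SNX5, which holds SNORD17, was at 1.58, 2.33 and 2.78 units, against 2.67, 2.35 and 3.11 in the same order, with overlap. SNHG3, the spliced noncoding host of the SNORA73 RNAs, was called lower in the shTP63 line over both days (-1.70, limma adjusted p = 0.043), and SNORA73B itself did not differ detectably (-0.01 ± 0.29, limma adjusted p = 0.99). Of 13 tested noncoding host genes, GAS5 and the SNHG genes among them, this was the one call, with a median of -0.54.

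**Figure D5:**
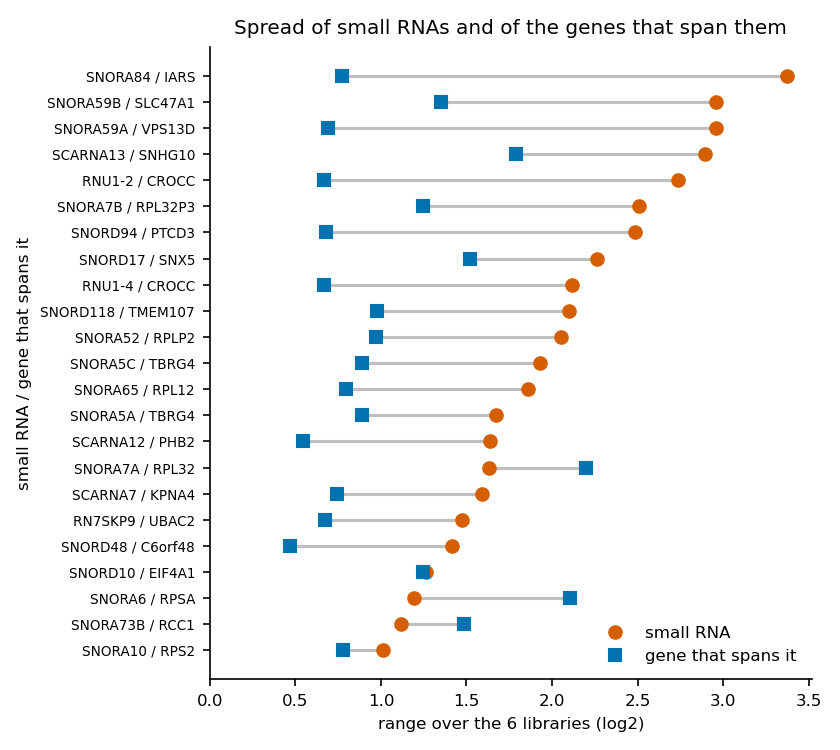
Range over the 6 libraries, in log2 units, of each small RNA (orange circles) and of the tested gene that spans it on the same strand (blue squares), for 23 pairs. The small RNA has the wider range in 20 pairs. In 7 pairs the small RNA was listed at 0 in uninduced shTP63 cells.

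mRNAs of the proteins that bind these RNAs had mostly negative median differences after doxycycline, without passing the test. None of the 9 protein lists had a called gene in either line or between the induced lines. The 13 box C/D proteins had a median difference of -0.91 in the shTP63 line and -0.67 in the shSOX2 line. RRP9, a protein of the U3 particle, had differences of -1.40 ± 0.34 and -0.90 ± 0.34 in the shTP63 and shSOX2 lines, and NOP58, a core protein, -1.27 ± 0.35 and -0.76 ± 0.35. NUFIP1, an assembly factor, had -0.91 and -0.77. The 6 box H/ACA proteins had medians of -0.99 and -0.47 in the shTP63 and shSOX2 lines. There, the pseudouridine synthase DKC1 had -1.11 and -0.74, GAR1 -1.08 and -0.94, NHP2 -1.43 and -0.15, and the assembly factor NAF1 -0.89 and -0.44. The smallest of the adjusted limma p-values among these genes was 0.16.

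Medians and differences of the other particles are listed with the shTP63 line before the shSOX2 line. Those of 14 Cajal body proteins were -0.31 and -0.41, where WRAP53, which brings RNAs to Cajal bodies, had -1.17 and -0.66, NOLC1 -1.20 and -1.15, and the export adaptor PHAX -0.21 and -0.72. Those of 14 Sm and LSm proteins were -0.37 and -0.25, with SNRPB at -0.87 and -0.16, SNRPF at -0.98 and -0.44, SNRPE at -0.53 and -1.01 and SNRPD1 at -0.34 and -0.65. Those of 14 genes of snRNA transcription and processing were -0.06 and -0.27, with SNAPC4 at -1.22 and -0.42, SNAPC1 at -0.72 and 0.03, INTS7 at -0.18 and -0.71 and INTS10 at -0.03 and -0.51. For the 7SK particle they were 0.09 and -0.16. MEPCE, which caps 7SK RNA, had -0.60 and -1.01, and HEXIM1, which with 7SK inhibits P-TEFb, 0.78 and -0.41.

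The 6 signal recognition particle proteins had medians of 0.10 and -0.29, with SRP14 at 0.89 and -0.29, SRP19 at -0.93 and -0.31 and SRP68 at 0.55 and -0.55. The 8 proteins of RNase P and MRP had medians of -0.60 and -0.58, with RPP40 at -1.20 and -0.69, RPP38 at -0.90 and -0.36, POP5 at -0.85 and -1.08 and POP1 at -0.21 and -0.95. For 21 genes of RNA polymerase III and La, which make and bind 7SK, 7SL and RMRP, the medians were -0.18 and -0.36, with CRCP at -0.93 and -0.42, POLR3B at -0.21 and -0.79 and BRF2 at -0.19 and -0.95. Over all genes tested the medians were 0.00 and -0.05.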

How the data were processed

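Levels came from a deposited table whose log2 values the authors had made by adding 1 to RPKM and giving all libraries one distribution (quantile normalization), as far as the values show; base 2 is an assumption. The submitters' processing notes name hg19 as the build, while the aligner, counter and annotation behind the table are not stated in the labels. The labels' protocols describe oligo(dT) bead capture, fragmentation, random priming and bead size selection, and state no strand-specific step. Linear RPKM is 2 raised to the deposited value, less 1.

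limma 3.58.1 (R 4.3.3) was fitted to 4 group means over all 6 libraries, with a mean-variance trend, on the 10536 genes with a mean of at least 1 RPKM; p-values were two-sided and Benjamini-Hochberg adjusted over all of them, called under 0.05. The single uninduced library of a line has no spread of its own and takes that of the induced pairs (2 residual degrees of freedom). The script was tested on simulated data. Sequences, lengths and spanning genes came from GENCODE release 29, of another build, so no coordinates are given. Members, gene lists and tests were chosen with earlier results of these data known. Named were all members of the small classes, in each snoRNA class the highest and the most changed ones, all called ones, the threshold neighbours, those of widest range, their spanning genes, and 2 partner proteins per list and line with the smallest p; 1 of these is not reported here.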

Additional observations from a re-analysis of the deposited data

How the results depend on the processing

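No called difference between the lines changed sign under any alternative. Between the induced lines, where 7 of the 45 RNAs were called, 0 were called with no filter on low values and 4 with 5 RPKM added in place of 1. With the day 0 libraries of both lines as one group 0 were called, and the number also changed when 1 library was left out. RN7SK ran from 1.45 to 1.68 over 11 alternatives (limma adjusted p 0.000449 to 0.387) and SNORD3A from -2.69 to -2.20 (0.00144 to 0.286). Over both days, also with 7 calls, 0 were called with no filter, and the number again changed with a library left out. The counts of 0 became, with a library left out, up to 6 within the shTP63 line, 1 for the difference of responses, 11 for day 4 against day 0 and 5 between uninduced lines (0 stayed the lowest in each); with both day 0 libraries day 4 against day 0 gave 2, and with 5 RPKM added the uninduced lines gave 2. The 9 RNAs of at least 2-fold difference in the shSOX2 line became 5 with a filter at 5 RPKM, 0 with 5 RPKM added, 17 with both day 0 libraries and 9 to 26 with a library left out, and the 13 of the shTP63 line became 7, 2, 4 and 13 to 19. The median difference in the shTP63 line was 0.37 with the filter at 5, 0.23 with 5 RPKM added and 0.31 to 0.37 with a library left out; in the shSOX2 line it was 0.70 with 5 RPKM added and 0.76 to 1.12. The cause of these shifts was not tested, except that a filter at 5 leaves 27 of the 45.

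Libraries with the same number in their titles did not deviate together (correlation -0.07), so the numbers were not taken as pairs. With the replicate block, 2 RNAs were called between the induced lines and 4 over both days, and no other count of calls changed. Both day 0 libraries as control cannot be applied to the difference of responses. Depth is unknown, so no counting interval can be given.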
